A study of Rattus norvegicus with 24 samples.

Results

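Circadian clock genes are described here across 3 groups of rat (Rattus norvegicus) brain libraries. The 10 genes Per1, Per2, Per3, Cry1, Cry2, Dbp, Nr1d1, Nr1d2, Clock and Ciart were chosen by name. All 10 are among the 29539 genes of the deposited count table, and all 10 passed the filter on low counts, which kept 14421 genes. The SKF group is 8 libraries from rats given SKF-81297, an agonist of D1-like dopamine receptors, by a peritoneal injection on each of 3 days with the first dose 1 h after a stab wound of the forebrain, as the series description states. The vehicle group is 8 libraries that the labels name by that word alone; it is taken to be wounded brain that received carrier without agonist. The normal control group is 8 libraries that the labels do not call sham-operated. The labels give no strain, sex, age, brain region, lighting schedule or clock time of collection, and whether each library is a separate animal is not stated. Each p-value therefore measures the spread between samples, which may be technical.

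The clock is a loop of transcription with a period near that of the day. CLOCK, or its relative NPAS2, pairs with BMAL1 (the product of Arntl) at E-box sequences and switches on the Per and Cry genes, whose proteins return to the nucleus and inhibit the pair. A side loop joins the nuclear receptors NR1D1 and NR1D2 (REV-ERB alpha and beta), which repress Arntl through ROR elements, and output factors such as DBP act on D-box sequences. Levels of Arntl and Npas2 peak at about the opposite time of day to those of Dbp, Nr1d1 and Per3 in tissues with a running clock. The suprachiasmatic nucleus of the hypothalamus sets the phase of the clocks in the other brain regions. Per1 and Per2 can also be switched on directly, by glucocorticoids for both and by cAMP signalling through CREB for Per1.

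The stretch from 250 bases before to 50 bases after the gene start was read from RefSeq on build GRCr8, which is not the build of the count table (mRatBN7.2). RefSeq held such a stretch for 9 of the 10 genes. Motifs were searched on both strands: the E-box CACGTG, the E-prime box CACGTT, the D-box TTANGTAA, the ROR element TAGGTCA and the cAMP response element TGACGTCA. No 2 matches overlapped in the stretches shown. Capitals mark the matches below, which are given for Ciart, the member with the largest difference from normal control, for Per2, which rose in the same comparison, for Nr1d1, which did not pass, and for Arntl, which fell.
Ciart: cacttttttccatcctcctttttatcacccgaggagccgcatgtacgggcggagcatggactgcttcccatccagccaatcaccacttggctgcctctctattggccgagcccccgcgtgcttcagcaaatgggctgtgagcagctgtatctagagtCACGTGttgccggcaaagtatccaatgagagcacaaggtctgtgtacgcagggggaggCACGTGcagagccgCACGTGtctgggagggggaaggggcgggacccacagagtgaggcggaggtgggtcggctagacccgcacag
Per2: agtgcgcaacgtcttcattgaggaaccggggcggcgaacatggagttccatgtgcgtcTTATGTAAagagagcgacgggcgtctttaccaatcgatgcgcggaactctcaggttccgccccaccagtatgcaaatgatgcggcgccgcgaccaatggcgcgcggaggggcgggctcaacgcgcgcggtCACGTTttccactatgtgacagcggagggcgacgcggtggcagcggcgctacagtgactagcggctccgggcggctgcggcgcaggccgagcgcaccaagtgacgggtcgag
Nr1d1: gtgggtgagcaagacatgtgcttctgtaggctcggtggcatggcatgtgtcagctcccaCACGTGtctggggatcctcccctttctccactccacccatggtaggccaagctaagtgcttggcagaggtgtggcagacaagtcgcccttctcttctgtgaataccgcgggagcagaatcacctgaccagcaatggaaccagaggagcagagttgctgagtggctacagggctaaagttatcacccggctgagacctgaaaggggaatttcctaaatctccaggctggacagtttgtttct
Arntl: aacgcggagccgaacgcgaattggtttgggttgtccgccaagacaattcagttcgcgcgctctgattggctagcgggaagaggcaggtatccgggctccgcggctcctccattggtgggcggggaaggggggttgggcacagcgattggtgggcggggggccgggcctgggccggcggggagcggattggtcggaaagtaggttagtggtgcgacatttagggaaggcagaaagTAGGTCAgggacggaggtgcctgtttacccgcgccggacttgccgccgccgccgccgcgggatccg
Ciart (chr2:186112197-186112496, minus strand) held 3 E-boxes, at positions -93 to -88, -35 to -30 and -21 to -16 from the start. Of 33469 RefSeq stretches of the same length, 6.42% held at least 1 E-box and 19 held 3 or more. Per2 (chr9:99496944-99497243, minus strand) held an E-prime box at -62 to -57 and a D-box at -192 to -185, motifs found in 4.83% and 2.24% of all stretches. The second of 2 stretches for Nr1d1 (chr10:84229405-84229704, minus strand) held an E-box at -191 to -186, and the other held an E-prime box. Arntl, listed in RefSeq as Bmal1 (chr1:176766078-176766377, plus strand), held a ROR element at -16 to -10, a motif found in 2.63% of all stretches. Cry2 held an E-prime box. The stretches of Per1, Per3, Dbp, Nr1d2 and Clock held none of the 5 motifs, which says only that these letters are not in these windows. A match is a description of letters and not a bound site.

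Total counts per library ran from 8911339 to 12383368. Levels of 1 gene are given as CPM (read counts divided by library size) scaled by TMM, a method that evens out library composition, and tests are edgeR quasi-likelihood F tests on the counts with p adjusted by Benjamini-Hochberg over 14421 genes. All 8 markers of neurons were detected, with a summed level of 4053 to 5291 TPM (abundance corrected for transcript length and depth) in SKF, 3029 to 5483 in vehicle and 4276 to 5877 in normal control. Of the 10 clock genes, 8 had their highest normal control CPM in normal control 6 and 8 had their lowest vehicle CPM in vehicle 7. In TPM Per3 was instead highest in normal control 5 and Cry2 in normal control 2, and Nr1d1 was lowest in vehicle 2. In normal control 6 the summed level of 6 striatal markers was 3413 TPM, against 150 to 835 TPM in the other normal control libraries, and that of 6 thalamic markers was 26.4 TPM, against 137 to 513. In vehicle 7 the summed level of 7 markers of the suprachiasmatic nucleus was 1224 TPM, the highest of the group, of which Avp, a hormone gene of several hypothalamic nuclei, made up 1190 TPM. Vehicle 2 had 962 TPM of Avp, against a vehicle median of 33.5 TPM. In normal control 4 the summed level of skeletal muscle markers was 2252 TPM, against 9.36 to 22.5 TPM in the other normal control libraries. Calls of the 10 clock genes that changed without 1 of these libraries are given both ways. The spread of each gene, the correlations over all libraries and the ranking of genes by likeness are given with all libraries only.

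Clock gene levels were set out per transcript length to compare genes with each other. Dbp had the highest mean level in every group, at 134 ± 18.5 TPM in SKF, 120 ± 31.2 TPM in vehicle and 89.1 ± 15.8 TPM in normal control (SD, n = 8 each). In normal control Cry2 (86.2 ± 6.47 TPM) came next and lay below Dbp in 3 of 8 libraries, so these 2 neighbours were not apart. Nr1d1 (77.6 ± 4.23 TPM), Nr1d2 (54.6 ± 3.53 TPM), Per1 (49.0 ± 6.83 TPM) and Clock (29.2 ± 1.94 TPM) followed. Per3 (17.7 ± 2.03 TPM) and Per2 (16.7 ± 2.32 TPM) overlapped in normal control, as did Cry1 (13.3 ± 2.84 TPM) and Ciart (11.6 ± 2.10 TPM) at the low end. In both wounded groups the order of the means differed at 2 places, Cry2 standing below Nr1d1 and Nr1d2, and Ciart standing above Cry1. In vehicle Nr1d2 (69.0 ± 12.7 TPM) lay above Cry2 (67.0 ± 6.52 TPM) in 5 of 8 libraries, so these 2 were not apart. Ciart was above Cry1 in 8 of 8 SKF libraries, 8 of 8 vehicle libraries and 3 of 8 normal control libraries.

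**Figure D1:**
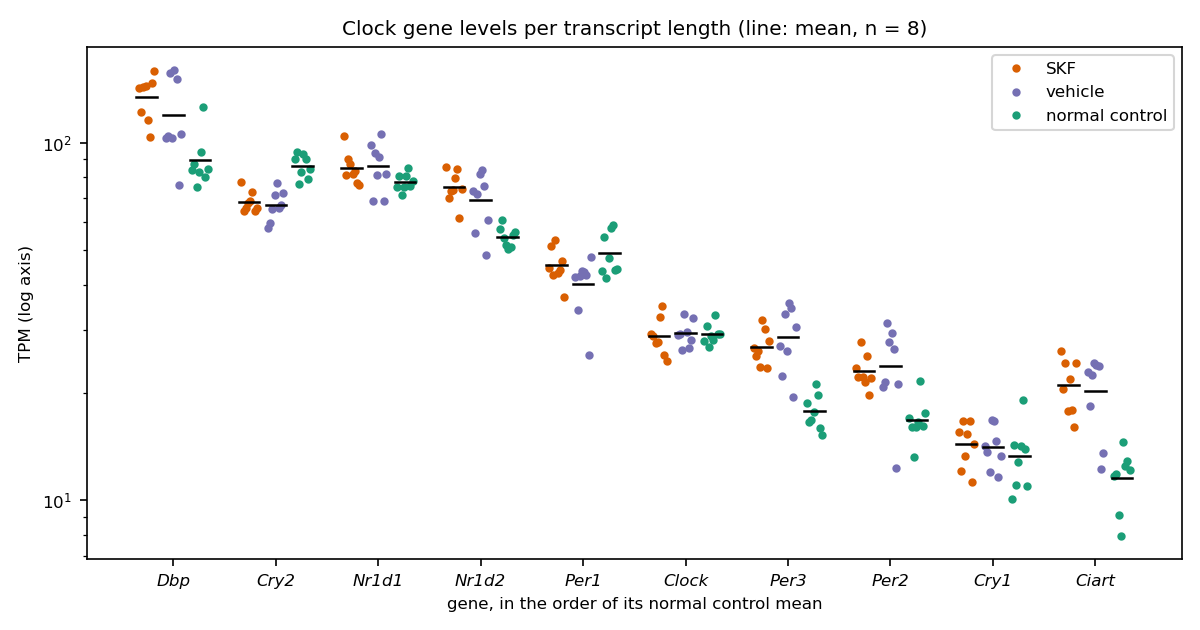
Level of each clock gene in TPM (log axis) in every library, with genes in the order of their normal control mean; points are libraries, horizontal lines are means of 8, and SKF, vehicle and normal control stand side by side for each gene. The mean of Dbp is highest in all 3 groups, though in normal control Dbp and Cry2 are not apart. Cry2 stands lower in SKF and vehicle than in normal control, and Ciart, Per2 and Per3 stand higher.

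The first comparison, of vehicle over normal control, concerned clock genes in wounded and normal brain. Ciart, Per3, Per2 and Nr1d2 rose and Per1 and Cry2 fell, which is 6 of 10 clock genes, 4 higher and 2 lower. Among all genes tested 54.0% passed in this comparison, 26.9% higher and 27.1% lower, so the share of clock genes that passed is near the background. On the log2 TPM scale the split over all genes was 5491 higher and 2410 lower, against 3879 and 3904 on counts, with the median gene moved by 0.11. The median log2 fold change was 0.11 over the 10 clock genes and -0.0097 over all genes. Dbp, Nr1d1, Cry1 and Clock did not pass. In bulk tissue, fewer cells of a type and less RNA per cell cannot be told apart.

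Of the repressors of the loop, Ciart (CHRONO), which binds BMAL1 and inhibits the pair, had 6.45 to 12.8 CPM in vehicle with a median of 11.8, and 4.43 to 7.97 CPM in normal control with a median of 6.97. Of the vehicle libraries 6 lay above every normal control library and the other 2 overlapped them. The log2 fold change was 0.67 ± 0.15 (SE, edgeR adjusted p = 0.000483). Per3, a period gene with a smaller part in keeping the rhythm in mice, had 52.3 to 93.1 CPM in vehicle with a median of 76.3, and 45.8 to 62.0 CPM in normal control with a median of 49.8. All 8 vehicle libraries lay above the normal control median and 6 lay above every normal control library, and Per3 rose by 0.56 ± 0.10 on the log2 scale (edgeR adjusted p = 2.91e-05). Per2, a core repressor whose loss disrupts the rhythm in mice, had 26.7 to 67.8 CPM in vehicle with a median of 52.9, and 31.5 to 54.9 CPM in normal control with a median of 37.5. Vehicle 7 was lower than every normal control library and 4 vehicle libraries were higher than all of them. The log2 fold change of Per2 was 0.37 ± 0.13 (edgeR adjusted p = 0.0195), and without vehicle 3, the library with most Per2, it was 0.31 and did not pass (edgeR adjusted p = 0.0523).

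Per1 and Cry2 stood on the other side. Cry2, a cryptochrome that inhibits CLOCK and BMAL1, had 82.2 to 110 CPM in vehicle with a median of 96.8, and 123 to 154 CPM in normal control with a median of 140. The 2 groups did not overlap in CPM, which held for 1 of the 10 clock genes and for 19.1% of all genes tested. In TPM they overlapped, at 57.6 to 77.2 TPM in vehicle and 76.6 to 93.9 TPM in normal control. The log2 fold change was -0.49 ± 0.06 (edgeR adjusted p = 4.88e-08). Per1, the period gene most readily induced by signals from outside the clock, had 38.1 to 72.1 CPM in vehicle with a median of 63.8, and 69.2 to 104 CPM in normal control with a median of 75.2. In CPM 7 vehicle libraries lay below every normal control library and vehicle 8 overlapped. In TPM the overlap was wider, at 25.4 to 47.8 TPM in vehicle (median 42.6) and 41.8 to 58.7 TPM in normal control. The log2 fold change was -0.41 ± 0.10 (edgeR adjusted p = 0.00129), and it ran from -0.42 to -0.28 over 11 other settings. Cry1, the other cryptochrome, had 12.6 to 18.2 CPM in vehicle and 12.0 to 24.3 CPM in normal control, at -0.05 ± 0.12 on the log2 scale (edgeR adjusted p = 0.760) with a 95% interval of -0.29 to 0.19.

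Among the nuclear receptors, Nr1d2 had 84.6 to 143 CPM in vehicle with a median of 125, and 91.5 to 114 CPM in normal control with a median of 104. It rose by 0.21 ± 0.08 on the log2 scale (edgeR adjusted p = 0.0378), and lost the call in 9 of the 24 fits that left out 1 library, with adjusted p up to 0.0959. Those 9 left out normal control 3, 4, 5 or 7 or vehicle 1, 3, 4, 5 or 6. The call was also lost in 3 of 11 other settings, among them with only the 2 groups compared (edgeR adjusted p = 0.0572) and without normal control 4 and 6 (0.0897). Nr1d1 had 87.4 to 136 CPM in vehicle and 101 to 127 CPM in normal control, at 0.02 ± 0.08 on the log2 scale (edgeR adjusted p = 0.863) with a 95% interval of -0.14 to 0.18. The difference between the changes of Nr1d1 and Nr1d2 was not tested.

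The output factor Dbp had 80.8 to 167 CPM in vehicle with a median of 113, and 88.1 to 157 CPM in normal control with a median of 98.5. Vehicle 3, 5 and 6 were the 3 libraries above every normal control library, and normal control 6 stood well above the other 7 of its group. At 0.29 ± 0.15 on the log2 scale it did not pass (edgeR adjusted p = 0.0935). Without normal control 6 it was 0.40 and passed (edgeR adjusted p = 0.0139), as it did without vehicle 7 (0.37, adjusted p = 0.0266). With all 24 libraries it passed under limma voom with sample weights (0.38) and under limma on both log2 TPM scales (0.40 each), and in all it passed in 5 of 11 other settings. Clock, a member of the activating pair, had 74.3 to 94.2 CPM in vehicle and 82.6 to 110 CPM in normal control, at -0.13 ± 0.06 on the log2 scale (edgeR adjusted p = 0.0912). It passed without vehicle 4 (-0.16, edgeR adjusted p = 0.0401). Without vehicle 7 and normal control 6 together, an alternative chosen after seeing the data, 7 of 10 clock genes passed, 5 higher and 2 lower, with Dbp at 0.47.

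**Figure D2:**
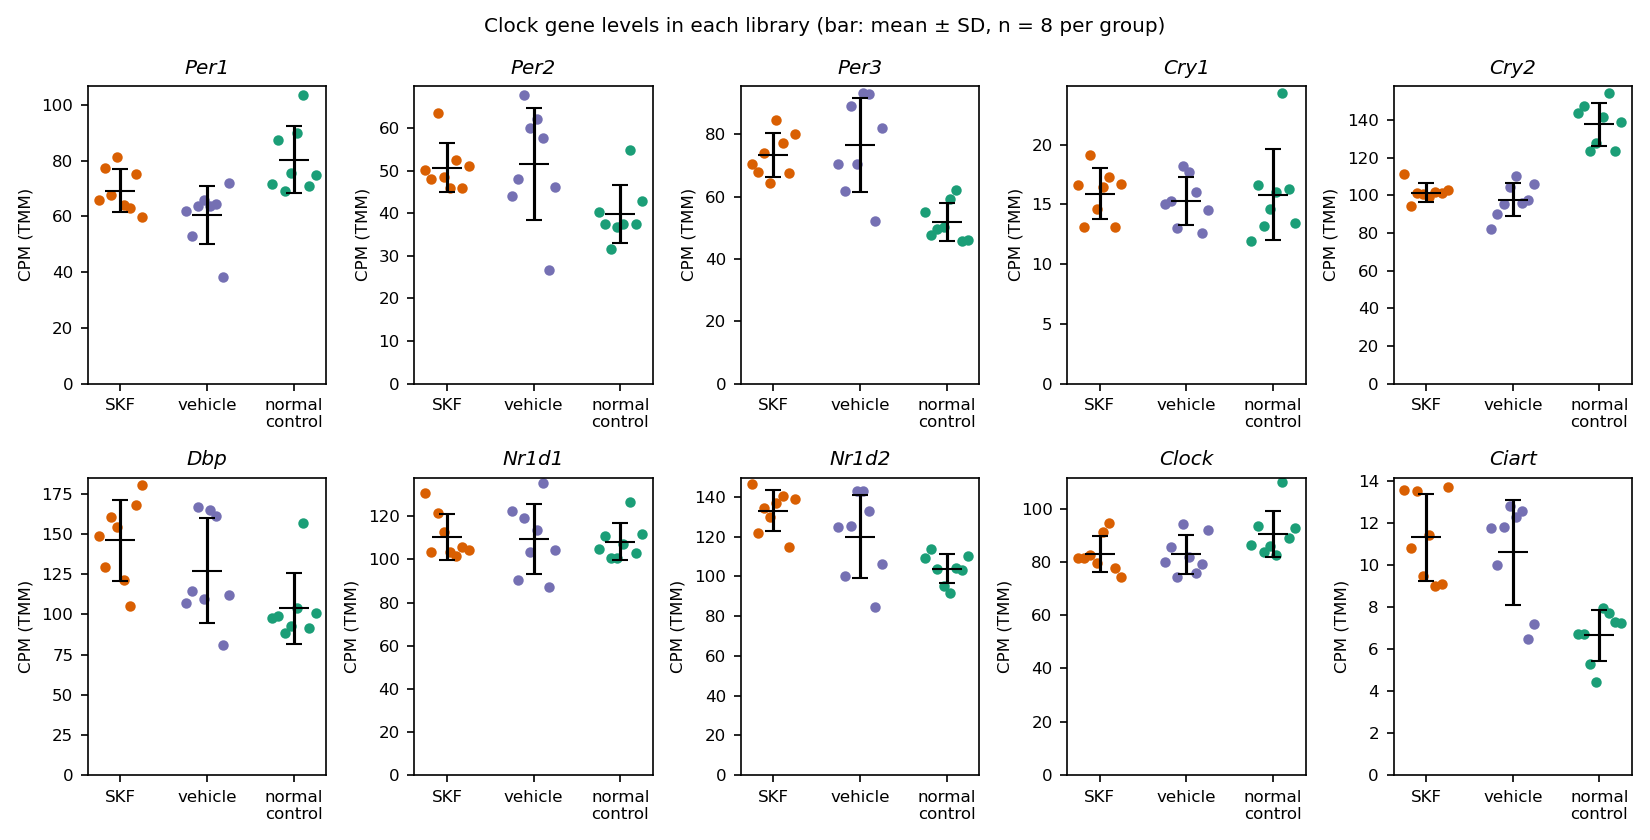
TMM-scaled CPM of each clock gene in every library of SKF, vehicle and normal control, on an axis from 0; points are libraries, and bars are the mean and SD of 8. Cry2 in both wounded groups lies below all of normal control, Ciart and Per3 lie mostly above it, and Nr1d1 and Cry1 overlap throughout.

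Other genes of the clock were taken from a list of 22, of which 21 passed the filter on low counts. In vehicle against normal control 9 of the 21 tested were higher, 4 were lower and 8 did not pass, beside the 54.0% of all genes that passed. Arntl, which encodes BMAL1, had 24.5 to 45.6 CPM in vehicle with a median of 28.1, and 37.6 to 62.3 CPM in normal control with a median of 41.8. Of the vehicle libraries 7 lay below every normal control library, and the log2 fold change was -0.54 ± 0.13 (edgeR adjusted p = 0.000693). Npas2, the relative of Clock that is abundant in forebrain, had 47.7 to 81.3 CPM in vehicle with a median of 68.6, and 80.8 to 153 CPM in normal control with a median of 88.3. Its log2 fold change was -0.55 ± 0.13 (edgeR adjusted p = 0.000676), with 7 vehicle libraries below every normal control library. Tef, a relative of Dbp that also acts on D-boxes, rose by 0.41 ± 0.07 (edgeR adjusted p = 3.95e-05). The third gene of that family, Hlf, had -0.19 ± 0.13 and did not pass (edgeR adjusted p = 0.237). Bhlhe40 and Bhlhe41, repressors that bind E-boxes (DEC1 and DEC2), rose by 0.34 ± 0.08 and 0.23 ± 0.06. Nfil3, which represses through D-boxes, rose by 0.41 ± 0.13. The ubiquitin ligase gene Fbxl21, whose product stabilises cryptochromes in mice, rose by 0.40 ± 0.13. The casein kinase genes Csnk1d, Csnk1e and Csnk1a1, which act on PER proteins, did not pass. On the log2(TPM + 1) scale, where the median gene stood at 0.11, these 3 passed at 0.17 to 0.22 (limma).

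Arntl2, the BMAL2 gene, rose by 2.36 ± 0.26 (edgeR adjusted p = 1.37e-08) and Timeless, which acts in DNA replication in mammals, rose by 1.68 ± 0.14 (edgeR adjusted p = 1.40e-10). Both differences are far larger than any among the 10 clock genes, but start from low levels. Arntl2 had 4.49 to 16.4 CPM in vehicle and 0.79 to 2.15 CPM in normal control. Timeless had 8.24 to 12.8 CPM in vehicle and 1.82 to 4.60 CPM in normal control. All 5 tested markers listed for macrophages and all 6 listed for neutrophils were higher in vehicle. Whether such cells came from the blood was not tested. The summed macrophage level was 348 to 544 TPM in vehicle and 10.7 to 17.3 TPM in normal control, and the summed neutrophil level was 141 to 375 TPM in vehicle and 4.2 to 12.0 TPM in normal control. No marker of either list was at 0 in every library. In vehicle 26.9% of all genes tested were higher and 27.1% lower, the background for each marker list here. Of the markers of resident cells, 5 of 8 neuronal and 6 of 6 oligodendrocyte markers were lower. Of 6 astrocyte markers 5 were lower and Gfap, a filament gene of reactive astrocytes, rose by 2.46 ± 0.12, and their summed level was 2862 to 4325 TPM in vehicle and 1520 to 1862 TPM in normal control. Of 6 microglial markers 1 was higher and 2 were lower, near the background. Thalamic markers were lower too, 6 of 6, with a summed level of 33.0 to 95.1 TPM in vehicle and 26.4 to 513 TPM in normal control. The part of these cell and region differences in the clock gene results was not tested.

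The directions can be set beside the times of day at which these genes peak in a running clock. Ciart, Per3, Per2, Nr1d2, Tef, Bhlhe40 and Bhlhe41 were higher, as was Wee1 of the other clock genes (0.28 on the log2 scale). Arntl and Npas2 were lower. Nfil3, which like Arntl is repressed by the REV-ERB receptors, was higher, and Per1 and Cry2 were lower. Dbp, Nr1d1 and Hlf did not pass, though Dbp passed in 5 of 11 other settings. In all, 9 of the 21 other clock genes tested were higher and 4 lower. The labels hold no clock time of collection, so its part in these differences was not tested. Markers of the suprachiasmatic nucleus varied within groups, with a summed level of 49.8 to 215 TPM in SKF, 37.6 to 1224 TPM in vehicle and 43.7 to 390 TPM in normal control. Vip, a peptide gene of that nucleus and of cortical interneurons, was the 1 of 5 tested markers that passed in vehicle against normal control, at -1.03 ± 0.23 on the log2 scale (edgeR adjusted p = 0.000491). Of all genes tested 26.9% were higher and 27.1% lower in vehicle, the background for these 5 markers and for the next 2 lists. Genes induced by neuronal activity or CREB were mostly lower in vehicle, 6 of 9 with Fos higher, and Egr1 fell by 1.61 on the log2 scale. Of 7 genes induced by glucocorticoids 4 were higher, with Fkbp5 at 0.58 ± 0.14, and 1 lower, Klf9 at -0.32. The part of either in the lower Per1 was not tested.

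SKF was set against vehicle to ask whether the D1-like agonist changed clock genes in wounded brain. No clock gene passed (0 of 10), nor did any other gene (background 0.0%), in the edgeR test, while 715 of 14421 genes, none of them one of the 10, had an unadjusted p under 0.05. DESeq2 called 6 genes and none of the 10. The largest differences among the clock genes were in Dbp, at 0.20 ± 0.14 (edgeR adjusted p = 0.947) with a 95% interval of -0.10 to 0.50, and in Per1, at 0.20 ± 0.10 (edgeR adjusted p = 0.937) with an interval of -0.01 to 0.41. Per1 had 59.7 to 81.3 CPM in SKF with a median of 66.8, and 38.1 to 72.1 CPM in vehicle with a median of 63.8. Of the SKF libraries 3 lay above every vehicle library. Dbp had 105 to 180 CPM in SKF with a median of 151, and 80.8 to 167 CPM in vehicle with a median of 113, and the 2 groups overlapped over most of their range. For Clock the interval was -0.13 to 0.13 and for Cry2 -0.07 to 0.17, while for Ciart it was -0.21 to 0.40. A difference of 1.5-fold in either direction lies outside the interval of each of the 10 clock genes. Among the other clock genes 0 of 21 passed, with Arntl at -0.18 ± 0.13 and Npas2 at -0.17 ± 0.13. Of 9 activity genes and 7 glucocorticoid genes 0 passed.

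SKF was also set against normal control. The 2 comparisons with normal control share those 8 libraries, so their values are given side by side and not as support for each other. In SKF 6 of 10 clock genes passed, 5 higher and 1 lower, against a background of 50.2% (25.5% higher and 24.7% lower). Ciart was 0.77 ± 0.15 in SKF, against 0.67 in vehicle, Per3 was 0.50 ± 0.10, against 0.56, and Per2 was 0.35 ± 0.13, against 0.37 (log2 fold changes over normal control). Nr1d2 rose by 0.36 ± 0.08 in SKF (edgeR adjusted p = 0.000795), with all 8 SKF libraries, at 115 to 147 CPM, above every normal control library, at 91.5 to 114 CPM. Dbp rose by 0.49 ± 0.15 in SKF (edgeR adjusted p = 0.00672), with 8 of 8 SKF libraries above the normal control median. Cry2 fell by 0.44 on the log2 scale (edgeR adjusted p = 4.00e-07), with 94.0 to 111 CPM in SKF and 123 to 154 CPM in normal control. Per1, at -0.21 ± 0.10 in SKF, did not pass (edgeR adjusted p = 0.0814), against -0.41 in vehicle. That difference is the SKF against vehicle test of Per1 above, which did not pass. In SKF the Per1 call was gained without vehicle 7 (edgeR adjusted p = 0.0313) or SKF 4 (0.0483), or with only the 2 groups compared (0.0375), and Clock, otherwise at -0.13, was called without SKF 6 (-0.16, edgeR adjusted p = 0.0357). Arntl was -0.72 ± 0.13 and Npas2 -0.71 ± 0.13, and for both all 8 SKF libraries lay below every normal control library in CPM. In TPM this held for Npas2, while Arntl overlapped, at 17.4 to 32.3 TPM in SKF and 28.2 to 43.9 TPM in normal control. Of the 10 clock genes 4 had no overlap in CPM between SKF and normal control (Per3, Cry2, Nr1d2 and Ciart), beside 18.6% of all genes tested. In TPM Cry2 overlapped, at 64.3 to 77.5 TPM in SKF and 76.6 to 93.9 TPM in normal control. The Per2 call was lost without normal control 3 (edgeR adjusted p = 0.0622), normal control 4 (0.0502) or SKF 3 (0.0687).

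**Figure D3:**
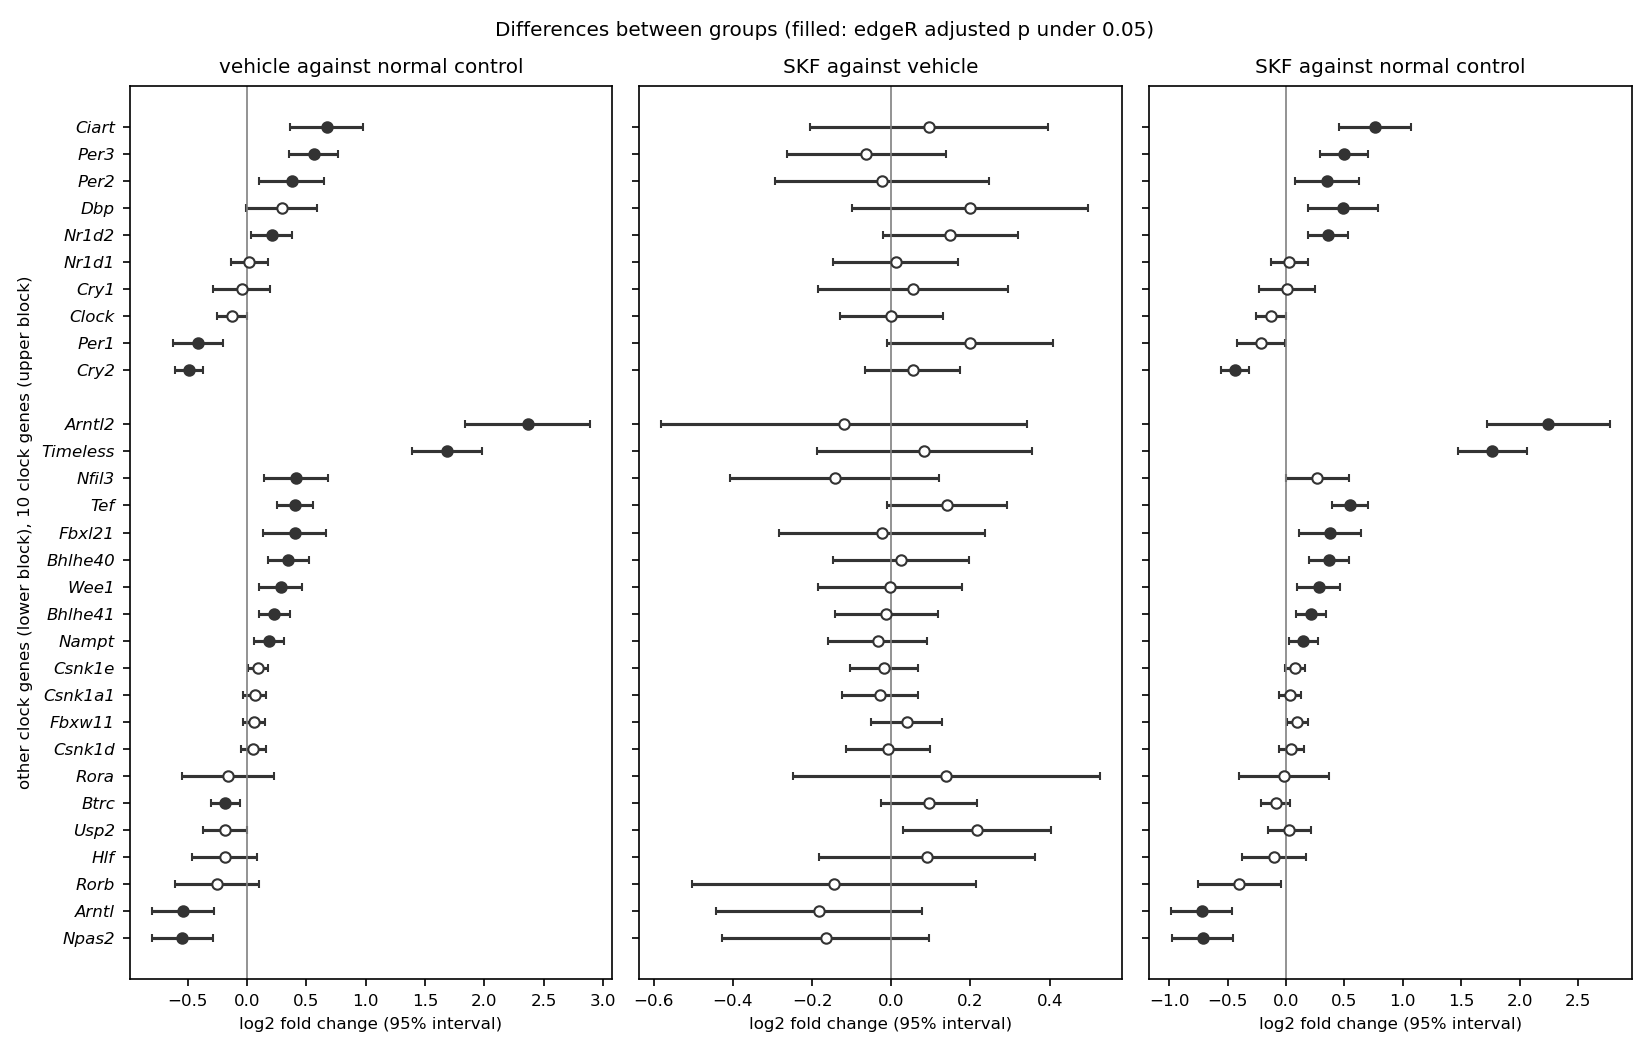
Log2 fold change with 95% interval for the 10 clock genes (upper block) and 20 other clock genes (lower block) in the 3 comparisons, with filled points for edgeR adjusted p under 0.05; the horizontal scale differs between panels. Ciart, Per3 and Per2 lie to the right and Cry2, Arntl and Npas2 to the left in both comparisons with normal control, and no point is filled in SKF against vehicle.

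The spread of the clock genes between libraries of a group differed by gene. The biological coefficient of variation, the spread left after counting error, was 20.0% for Dbp and 18.3% for Per2, at percentiles 75.8 and 71.3 of all genes, and 8.41% for Cry2 and 9.06% for Clock, at percentiles 10.2 and 16.6. Over the 24 libraries, deviations of Dbp from the group means ran with those of Nr1d1 (Spearman rho 0.69), Per2 (0.62) and Ciart (0.52), and had a rho of 0.11 with Arntl. Deviations of Arntl ran with those of Cry1 (0.70) and Cry2 (0.65). These correlations are descriptions over libraries that share a preparation and differ in composition.

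Dbp was then related to 4 genes within each group of 8, which gave 12 relations with p adjusted over them. In vehicle Dbp rose with Per3 (Pearson r = 0.91, exact permutation adjusted p = 0.0129, Spearman rho = 0.76, exact permutation adjusted p = 0.147). Without vehicle 3 and 5, the 2 libraries farthest from the Dbp median, r was 0.88 and the exact permutation adjusted p was 0.394. In normal control Dbp rose with Nr1d1 (Pearson r = 0.94, exact permutation adjusted p = 0.0129, Spearman rho = 0.90, exact permutation adjusted p = 0.0435). It also rose with Arntl there (r = 0.96, exact permutation adjusted p = 0.0170, rho = 0.88, exact permutation adjusted p = 0.0435). Between vehicle and normal control Arntl fell and Dbp did not pass. Without normal control 3 and 6 the r with Nr1d1 and with Arntl was 0.73 and 0.64. Neither passed (exact permutation adjusted p = 0.394 and 0.395) with 6 libraries left and the extremes of Dbp removed. The relation of Dbp to Arntl did not pass in SKF (r = -0.57, exact permutation adjusted p = 0.230) or in vehicle (r = -0.05, exact permutation adjusted p = 0.907). Of the other relations, none passed by Pearson r or Spearman rho: in vehicle with Ciart (r = 0.68) and Nr1d1 (0.72), in normal control with Per3 (0.72) and Ciart (0.50), and in SKF with Per3 (-0.29), Ciart (0.42) and Nr1d1 (0.36).

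**Figure D4:**
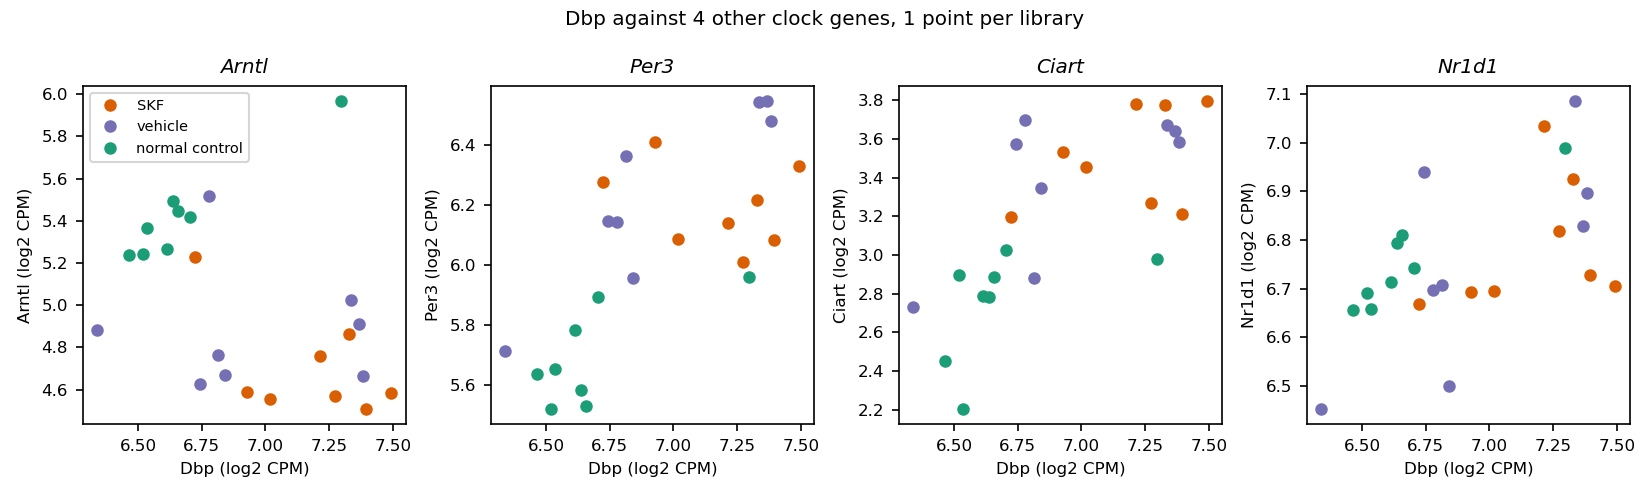
Log2 CPM of Dbp (horizontal) against Arntl, Per3, Ciart and Nr1d1 (vertical), 1 point per library, coloured by group. In the Arntl panel 1 normal control library (normal control 6) stands apart at the top right, and the SKF and vehicle libraries lie mostly below the normal control libraries.

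The genes most like Dbp were ranked by the Spearman rho of their deviations from the group means over 24 libraries, among 12294 genes with a symbol and a mean of at least 1 log2 CPM. The 5 highest were Smarca2 (0.87), Rabl6 (0.81), Syndig1 (0.81), Sybu (0.79) and Zfp653 (0.79), and the 5 lowest were Zc3hav1 (-0.84), Ano6 (-0.79), Eif2ak2 (-0.77), Ppp2r1b (-0.76) and Aldh1a3 (-0.75). Of the other clock genes, the D-box factors Hlf and Tef stood 20th and 61st (rho 0.73 and 0.65) and Usp2, a deubiquitinase with a clock-driven rhythm in mice, stood 147th (0.58). Npas2 stood 959th (0.39) and Arntl 4177th. Toward the other end Nfil3, which represses through D-boxes, stood 11865th (-0.46), Nampt 11631st (-0.42) and Arntl2 11334th (-0.37). For Per1 the 5 highest were Ccdc92b (0.80), Grik3 (0.78), Lmtk2 (0.78), Coro2b (0.77) and Fam234b (0.74), and the 5 lowest were Ginm1 (-0.82), Ice2 (-0.79), Calu (-0.71), Ap3m1 (-0.71) and Sypl1 (-0.70).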

How the data were processed

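The authors deposited whole-number read counts per gene for 24 libraries (poly(A) selection and a directional kit, per the labels' protocols, on build mRatBN7.2, per the submitters' processing notes). They also deposited TPM (abundance corrected for length and depth) for the same genes. Aligner and counter: not given in the sources used here. Groups and replicate numbers come from sample titles.

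The test was edgeR 4.0.16 under R 4.3.3 on counts (TMM, filterByExpr by group, robust quasi-likelihood, 24 libraries in 1 fit, 21 residual degrees of freedom), with an adjusted p threshold of 0.05 over 14421 genes. Alternatives used DESeq2 1.42.0, limma 3.58.1, other filters, size factors and libraries. Log2 CPM used a prior count of 2. Correlations were tested by exact permutation (Python 3.11.15, SciPy 1.17.1). The 95% intervals come from the edgeR standard errors. On simulated data for SKF against vehicle (14421 genes, 50 changed at each size, all sizes in 1 set) 30% of genes changed 1.25-fold were recovered, 70% of those changed 1.5-fold, 88% of those changed 2-fold and 94% of those changed 4-fold. With so many changed genes the adjusted threshold is easier to pass than in the real comparison, where 0 genes passed. These shares may therefore overstate recovery there. Genes named were all 10 clock genes, the list of other clock genes, up to 3 members of each other list with the smallest adjusted p in vehicle against normal control, and 5 genes at each end of the ranking by likeness. Fos was named after its values were seen. Individual results for some of the other clock genes are not reported here. The members and lists were chosen with earlier results of these data known.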

Additional observations from a re-analysis of the deposited data

Results flagged for a closer look

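Of 30 sets of 8 libraries (10 clock genes in 3 groups), 5 had 1 library whose gap to its nearest neighbour passed Dixon's 95% limit for 8 values, as a share of the range of the group. Chance gives about 1 in 20. In 4 of the 5 the library was normal control 6, with 157 CPM of Dbp, 24.3 CPM of Cry1, 127 CPM of Nr1d1 and 110 CPM of Clock, each the highest of its group. Normal control 6 also had the highest striatal and the lowest thalamic marker sum of its group, and the part of that in its clock gene levels was not tested. The other was SKF 3, with 63.6 CPM of Per2. The limit was applied to CPM only, and normal control 6 had the lowest TMM factor of the 24 libraries (0.904). A lower factor gives a higher CPM for every gene of a library. In TPM normal control 6, at 84.7 for Nr1d1 and 33.0 for Clock, stood closer to the next libraries, at 80.9 and 30.8. For Dbp and Cry1 it had 126 and 19.0 TPM, with the next at 94.1 and 14.3. SKF 3 had 27.8 TPM of Per2, with the next at 25.3.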

How the results depend on the processing

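The calls of Ciart, Per3, Per1 and Cry2 in vehicle against normal control, and of Ciart, Per3, Cry2, Nr1d2 and Dbp in SKF against normal control, held in all 24 fits that left out 1 library and in all 11 other settings. Counts of clock genes that passed stayed within 1.5 times: 4 to 7 in vehicle and 5 to 7 in SKF, each against normal control. In SKF against vehicle DESeq2 called 6 genes where edgeR called 0. With the replicate block 5, 0 and 6 clock genes passed in vehicle against normal control, SKF against vehicle and SKF against normal control, with Nr1d2 not called in the first of these (edgeR adjusted p = 0.0578). Same-numbered libraries were not paired by the labels, and 0 of 8 pairs in any comparison had deviations correlated over 0.1. Directions that turned were all of values that did not pass, and the cause was not tested. In vehicle against normal control, Cry1 turned to 0.0090 (limma voom), 0.093 and 0.10 (log2 TPM, pseudocounts 1 and 0.1), 0.065 (without normal control 4 and 6) and 0.10 (without vehicle 7 and normal control 6), and Clock to 0.0010 on both TPM scales. In SKF against vehicle, Nr1d1 turned to -0.013 (limma voom), -0.0060 and -0.0059 (log2 TPM) and -0.030 (without vehicle 7 and normal control 6). Clock there turned to -0.0036 (RLE), -0.0012 (replicate block), -0.0032 (only 2 groups), -0.024 and -0.025 (log2 TPM), -0.0035 (DESeq2) and -0.0085 (without vehicle 7 and normal control 6). With 1 library left out the log2 fold changes ran, in vehicle against normal control, from -0.096 to 0.065 for Cry1 and from -0.032 to 0.058 for Nr1d1. In SKF against vehicle they ran from -0.12 to 0.041 for Per2, -0.030 to 0.061 for Nr1d1 and -0.033 to 0.025 for Clock. In SKF against normal control they ran from -0.041 to 0.12 for Cry1 and -0.014 to 0.064 for Nr1d1. Without the 2 libraries farthest from the Dbp median, the relation of Dbp turned to r = 0.56 with Per3 and -0.10 with Nr1d1 in SKF and to 0.13 with Arntl in vehicle. The calls with Arntl (0.64) and Nr1d1 (0.73) in normal control and Per3 (0.88) in vehicle were lost, with 6 libraries left. On the log2(TPM + 1) scale Spearman's rho of Dbp in SKF turned to -0.36 with Nr1d1 and -0.07 with Ciart, against 0.55 and 0.43 on CPM, and rho with Per3 in vehicle passed at 0.88 (exact permutation adjusted p = 0.0429), against 0.76 on CPM. Ciart and Cry1 had the fewest counts of the 10 genes.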
